A study of Rattus norvegicus with 12 samples.

Results

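The genes described here are 10 ligands, antagonists and early targets of the transforming growth factor beta (TGF-beta) and bone morphogenetic protein (BMP) pathways: Tgfb1, Tgfb2, Ltbp2, Fst, Bambi, Smad6, Smad7, Id1, Id2 and Id3. They were found by gene symbol among the 13337 named genes (22523 probes in all) of an Illumina rat BeadChip, where each of the 10 genes had 1 probe, so 10 probes are described. The RNA came from GN5 and H5D, 2 tumorigenic cell lines of rat liver, each exposed to DMSO vehicle or to 50 nM rapamycin, an inhibitor of the kinase mTOR, for 24 h, with 3 arrays in each of the 4 groups. GN5 was derived from the rat liver epithelial line WB-F344 by transformation with a chemical carcinogen and was grown in DMEM/F12, and H5D came from a hepatocellular carcinoma that an azo dye had induced in a Fischer rat and was grown in Waymouth medium. Line and medium therefore cannot be told apart. Both lines had an intermediate response to rapamycin, although the drug inhibited DNA synthesis more in GN5 than in H5D. Each is a single line, and the RNA of a group came from triplicate plates, so errors and p-values describe the spread between plates.

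TGF-beta and BMP ligands bind pairs of receptor kinases at the cell surface, which phosphorylate receptor Smads that enter the nucleus with Smad4. The pathway limits itself at several levels, since many of its antagonists are also its transcriptional targets, among them the inhibitory Smads and the pseudoreceptor Bambi. In liver, TGF-beta restrains the growth of hepatocytes and drives matrix production by stellate cells, and BMP signalling sets the iron hormone of hepatocytes. Id proteins lack a DNA binding domain and hold basic helix-loop-helix factors inactive, and Id1 is among the best known direct BMP targets.

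The 10 genes were selected on their response to rapamycin in GN5, as known from an earlier look at these arrays. Their values in that comparison, and in the difference of responses that contains it, are therefore a description with no p-value. H5D arrays and the comparisons between lines were tested, although the latter share the GN5 arrays that chose the genes. The p-values between lines are therefore not independent of that choice. The share of probes detected (detection p no higher than 0.01) was 33.0% to 35.7% on the GN5 arrays and 35.1% to 37.7% on the H5D arrays. The median raw signal was 74.3 to 82.7 on 10 arrays, but 105.9 and 96.2 on GN5 vehicle replicates 2 and 3. All 6 hepatocyte markers on the chip that had been listed, with Alb, Afp and Hnf4a among them, were undetected in every group, as were the 2 macrophage and the 2 endothelial markers. The keratins Krt8 and Krt7 and the mesenchymal filament Vim were detected in every group. The other epithelial and mesenchymal markers on the chip were not: Krt19 was detected in H5D alone and Col1a1 in GN5 alone. Epcam, Cdh1 and Thy1 were undetected in every group, and Des was detected on 1 GN5 vehicle array only.

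Promoter sequence was taken from RefSeq for 8 of the 10 genes, as the 250 bases before the annotated start on the GRCr8 assembly. Smad6 and Fst had no entry. The 3 motifs searched are known for Smad proteins and were read on both strands: CAGAC, the core of the Smad binding element, its palindrome GTCTAGAC, and the GC-rich BMP element GGCGCC. None of the motifs overlaps another as spelled. A pair of promoters is shown, since Ltbp2 was the only one of the 8 with a CAGAC, while Id2 was the one gene detected on all arrays that was called in the difference of responses between the lines. Capitals mark CAGAC on either strand.
Ltbp2, chr6:110257299-110257548, minus strand: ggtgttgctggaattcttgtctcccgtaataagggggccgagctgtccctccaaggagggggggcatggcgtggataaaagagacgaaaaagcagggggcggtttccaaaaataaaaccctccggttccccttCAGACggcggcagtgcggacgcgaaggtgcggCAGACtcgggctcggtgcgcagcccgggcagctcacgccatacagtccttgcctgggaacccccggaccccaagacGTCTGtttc
Id2, chr6:47470996-47471245, minus strand: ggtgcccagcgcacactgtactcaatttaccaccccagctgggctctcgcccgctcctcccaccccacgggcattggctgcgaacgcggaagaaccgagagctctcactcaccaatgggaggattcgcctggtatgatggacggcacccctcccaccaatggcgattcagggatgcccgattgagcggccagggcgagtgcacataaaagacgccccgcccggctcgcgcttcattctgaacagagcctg
Ltbp2 held CAGAC 3 times, at bases -117 to -113, -85 to -81 and, on the other strand, -9 to -5 from the start. CAGAC was present in 42.8% of 27457 rat promoters of this length. GGCGCC was found in 2 of the 8 genes, at -96 to -91 and -36 to -31 in Smad7 and at -74 to -69 in Bambi, against 9.24% of all promoters. GTCTAGAC was found in 0 of the 8 and in 0.186% of all promoters. Id2 held none of the 3 motifs in this window.

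**Figure D1:**
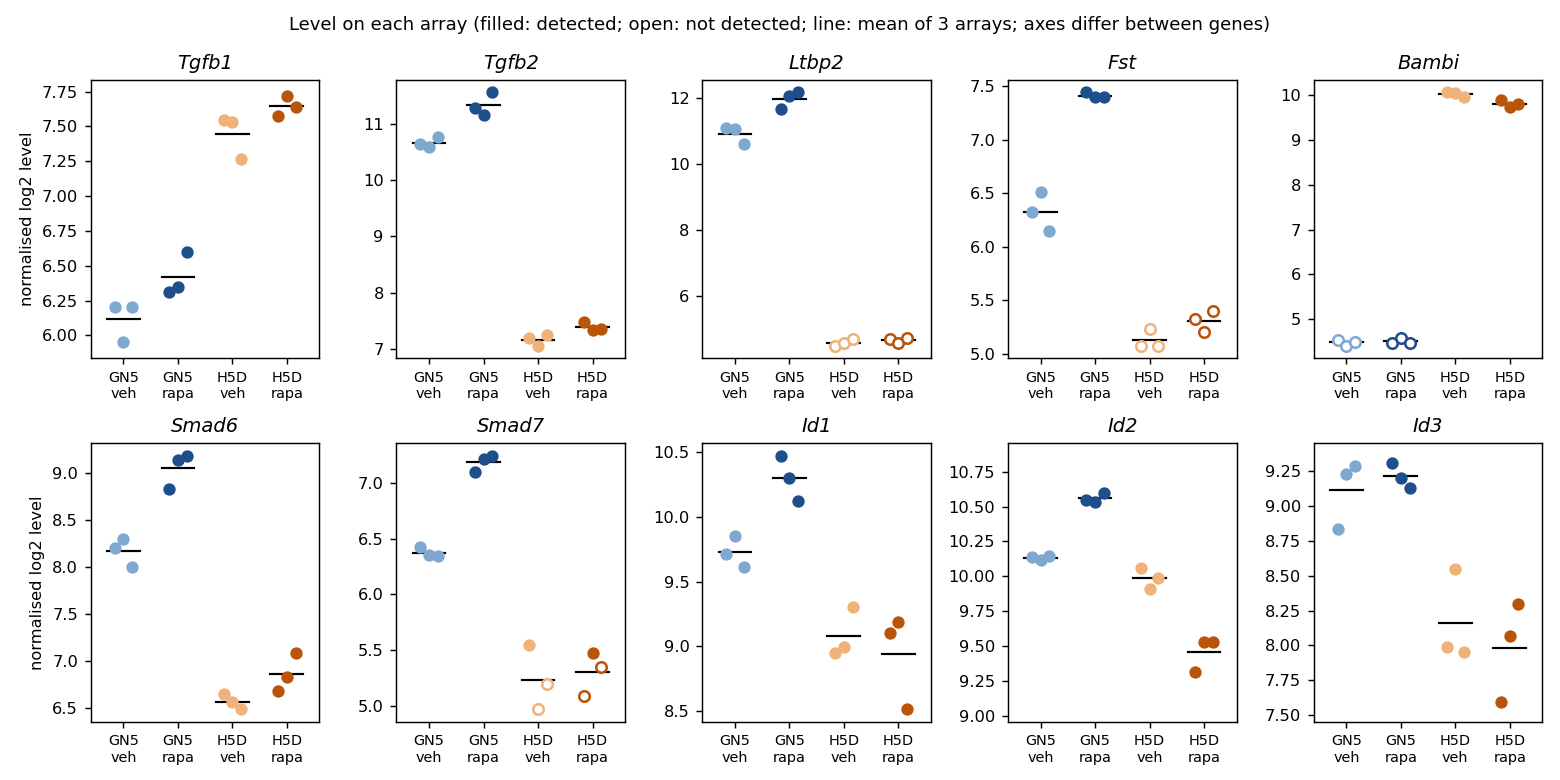
Normalised log2 level of each gene on each array (y axis, scaled per gene) in the 4 groups (x axis, 3 arrays each). Filled points are detected, open points are not, and lines are group means. Ltbp2 and Fst were detected in GN5 alone, Bambi in H5D alone, and the GN5 arrays with rapamycin lay above those with vehicle for 8 of the 9 genes detected there.

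Levels below are log2 values after background correction and quantile normalisation. They are compared within a probe, never between probes. Of the 10 genes, 6 were detected on all 12 arrays (Smad6, Tgfb1, Tgfb2, Id1, Id2 and Id3). Ltbp2 and Fst were detected on the 6 GN5 arrays and on 0 H5D arrays, Bambi on the 6 H5D arrays and on 0 GN5 arrays. Smad7 was detected on the 6 GN5 arrays and on 2 H5D arrays.

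Among the ligands, Tgfb2 was far higher in GN5 and Tgfb1 higher in H5D. Tgfb2 (probe ILMN_1373682), a TGF-beta isoform made by many epithelial and mesenchymal cells, had log2 levels of 10.64, 10.59 and 10.76 in GN5 vehicle and 11.29, 11.17 and 11.56 in GN5 rapamycin. In H5D its levels were 7.19, 7.05 and 7.24 with vehicle and 7.47, 7.34 and 7.35 with rapamycin. No array of one group overlapped another group, in the order H5D vehicle, H5D rapamycin, GN5 vehicle, GN5 rapamycin. The difference between the lines was 11.3-fold under vehicle (log2 3.50, SE 0.109, limma adjusted p = 4.02e-10) and 15.5-fold under rapamycin (3.95, SE 0.113, adjusted p = 9.23e-12). With rapamycin, Tgfb2 was 1.60-fold higher in GN5 (log2 0.68, SE 0.117). The H5D estimate was 0.22 (SE 0.103, 95% interval -0.01 to 0.45, adjusted p = 0.311), which did not pass the threshold although the 2 sets of 3 arrays did not overlap.

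Tgfb1 (ILMN_1356448), the most widely expressed isoform, ran the other way between the lines. Its log2 levels were 6.21, 5.95 and 6.20 in GN5 vehicle, 6.31, 6.34 and 6.60 in GN5 rapamycin, 7.55, 7.54 and 7.26 in H5D vehicle, and 7.58, 7.72 and 7.64 in H5D rapamycin. Every H5D array was above every GN5 array. Tgfb1 was 2.51-fold lower in GN5 under vehicle (log2 -1.33, SE 0.125, adjusted p = 4.16e-06) and 2.34-fold lower under rapamycin (-1.23, SE 0.104, adjusted p = 3.86e-07). With rapamycin it was higher by 0.30 (SE 0.115) in GN5, which was not called, and the H5D estimate was 0.20 (SE 0.113, interval -0.06 to 0.45, adjusted p = 0.417). Its arrays with and without rapamycin did not overlap in either line.

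Ltbp2, a microfibril protein that resembles the latent TGF-beta binding proteins, was detected in GN5 alone. The probe (ILMN_1361640) gave 11.08, 11.07 and 10.59 in GN5 vehicle and 11.66, 12.05 and 12.17 in GN5 rapamycin, and stayed between 4.49 and 4.72 on the 6 H5D arrays, where it was undetected. With rapamycin Ltbp2 was 2.06-fold higher in GN5 (log2 1.05, SE 0.158), and the lowest rapamycin array was above the highest vehicle array. Because H5D gave no level above background, the gap between lines is a bound, from the GN5 mean against the higher of the lowest detected level and the probe's own level on each H5D array. Ltbp2 was at least 47.5-fold higher in GN5 under vehicle and at least 94.3-fold higher under rapamycin. No p-value is given for these bounds, since the probe was tested through GN5 alone.

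Of the antagonists that act outside the cell or at its surface, Fst was detected in GN5 alone and Bambi in H5D alone. Follistatin (Fst, ILMN_1353747) binds and neutralises activins and some BMPs. Its levels were 6.32, 6.51 and 6.15 in GN5 vehicle and 7.44, 7.40 and 7.40 in GN5 rapamycin, a 2.12-fold higher mean with rapamycin (log2 1.09, SE 0.108) and the largest estimate of the 9 genes tested in that line. On the 6 H5D arrays it lay between 5.07 and 5.40 and was undetected, with detection p between 0.0121 and 0.0364, just past the limit on some arrays. Fst was at least 1.98-fold higher in GN5 under vehicle and at least 4.04-fold higher under rapamycin, again given without a p-value because the probe was tested through GN5 alone.

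Bambi (ILMN_1364929) is a membrane protein that resembles a TGF-beta receptor without its kinase and blocks receptor assembly. It was undetected on all GN5 arrays, at 4.41 to 4.59, so no response of GN5 could be read. In H5D it gave 10.05, 10.03 and 9.94 with vehicle and 9.88, 9.72 and 9.79 with rapamycin. All rapamycin arrays were below the vehicle arrays, but the difference of -0.21 (SE 0.0992, interval -0.44 to 0.01, adjusted p = 0.313) did not pass. Bambi was at least 22.0-fold lower in GN5 under vehicle and at least 18.9-fold lower under rapamycin. These bounds carry no p-value either, since the probe was tested through H5D alone.

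The inhibitory Smads were both higher in GN5 and higher there with rapamycin. Smad6 (ILMN_1367741), which mainly restrains BMP receptors, gave 8.20, 8.29 and 8.0 in GN5 vehicle and 8.83, 9.14 and 9.18 in GN5 rapamycin, 1.85-fold higher (log2 0.89, SE 0.122). In H5D its levels were 6.64, 6.56 and 6.49 with vehicle and 6.68, 6.83 and 7.08 with rapamycin. The H5D arrays did not overlap, with rapamycin higher, yet the difference of 0.30 (SE 0.123, interval 0.02 to 0.57) had an adjusted p of 0.272 by limma. Between lines, Smad6 was 3.03-fold higher in GN5 under vehicle (log2 1.60, SE 0.116, adjusted p = 4.25e-07) and 4.56-fold higher under rapamycin (2.19, SE 0.128, adjusted p = 9.67e-09).

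Smad7 (ILMN_1361953), which recruits ubiquitin ligases to the TGF-beta receptors, gave 6.43, 6.35 and 6.34 in GN5 vehicle and 7.10, 7.21 and 7.24 in GN5 rapamycin. The difference was 1.75-fold (log2 0.81, SE 0.0939), with a wide gap between the 2 sets of arrays. In H5D it gave 5.54, 4.97 and 5.19 with vehicle and 5.09, 5.47 and 5.35 with rapamycin and was detected only on vehicle replicate 1 and rapamycin replicate 2. These H5D arrays overlapped, and the probe was not tested there. Smad7 was 2.20-fold higher in GN5 under vehicle (log2 1.14, SE 0.143) and 3.68-fold higher under rapamycin (1.88, SE 0.112). These folds are against H5D groups in which 1 of 3 arrays detected the probe. They carry no p-value, since the probe was tested through GN5 alone.

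The Id genes did not behave alike. Id2 had nearly the same level in both lines without drug and moved apart with it. The probe (ILMN_1349207) gave 10.14, 10.11 and 10.15 in GN5 vehicle and 10.55, 10.53 and 10.60 in GN5 rapamycin, 1.34-fold higher (log2 0.43, SE 0.0896). In H5D the levels were 10.06, 9.91 and 9.98 with vehicle and 9.31, 9.53 and 9.53 with rapamycin, so all 3 rapamycin arrays were lower. The H5D difference was -0.53 (SE 0.107, interval -0.77 to -0.29) and missed the threshold with an adjusted p of 0.0646. It passed under 4 alternatives. Among them were the authors' normalised values (-0.50, adjusted p = 0.0311) and a background offset of 50 (-0.51, adjusted p = 0.0357). The others were all 12 arrays in the fit (-0.53, adjusted p = 0.00589) and the methods' t-test (adjusted p = 0.0333 after Benjamini-Hochberg adjustment). The H5D difference did not pass under scaling to a common median, no detection filter, a looser detection limit or replicate number as a block. Leaving out any single array also gave no call, at -0.57 to -0.46. Between lines Id2 differed by 0.15 under vehicle (SE 0.102, interval -0.08 to 0.38, adjusted p = 0.227), which did not pass. It was 2.15-fold higher in GN5 under rapamycin (1.10, SE 0.0971). That difference is given without a p-value, since it holds the GN5 response that chose the gene.

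Id1 (ILMN_1365871) gave 9.71, 9.85 and 9.61 in GN5 vehicle and 10.47, 10.30 and 10.12 in GN5 rapamycin, 1.49-fold higher (log2 0.57, SE 0.115) with no overlap. In H5D its levels were 8.95, 8.99 and 9.30 with vehicle and 9.11, 9.19 and 8.51 with rapamycin, where rapamycin replicate 3 was the lowest of the 6 arrays. The H5D difference was -0.15 (SE 0.18, interval -0.55 to 0.26, adjusted p = 0.718), and 0.066 without rapamycin replicate 3. Id1 was 1.56-fold higher in GN5 under vehicle (log2 0.64, SE 0.128, adjusted p = 0.00115) and 2.57-fold higher under rapamycin (1.36, SE 0.162, adjusted p = 9.09e-06).

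Id3 (ILMN_1360216) was higher in GN5, with little difference by drug. Its levels were 8.84, 9.23 and 9.29 in GN5 vehicle and 9.31, 9.20 and 9.13 in GN5 rapamycin, which overlapped. The estimate of 0.10 (SE 0.126) was not called and turned to -0.045 without GN5 vehicle replicate 1. In H5D the levels were 7.99, 8.55 and 7.95 with vehicle and 7.59, 8.07 and 8.30 with rapamycin, a difference of -0.18 (SE 0.205, interval -0.64 to 0.28, adjusted p = 0.695) that was 0.015 without vehicle replicate 2 and 0.016 without rapamycin replicate 1. Id3 was 1.94-fold higher in GN5 under vehicle (log2 0.95, SE 0.178, adjusted p = 0.00078; 0.67 and adjusted p = 0.0669 without GN5 vehicle replicates 2 and 3) and 2.34-fold higher under rapamycin (1.23, SE 0.152, adjusted p = 1.24e-05).

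**Figure D2:**
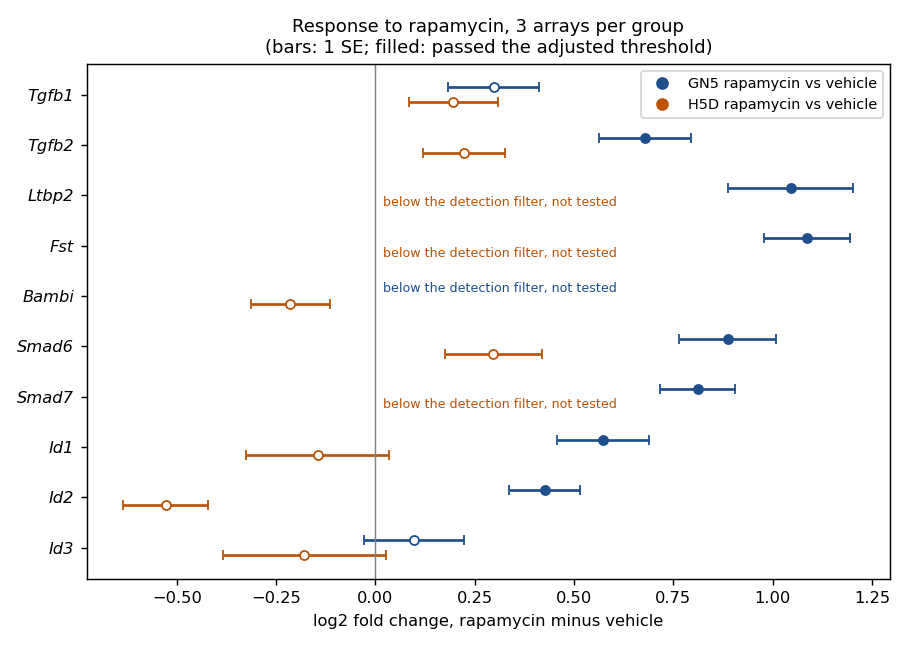
Log2 fold change with rapamycin against vehicle (x axis, bars 1 SE, 3 arrays per group) for each gene (y axis) in GN5 and H5D. Filled points had an adjusted p below 0.05, which for GN5 is a description only, since that comparison chose the genes. The 9 GN5 estimates run from 0.10 (Id3) to 1.09 (Fst), and the 7 H5D estimates from -0.53 (Id2) to 0.30 (Smad6).

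Counted over the genes, 9 of the 10 could be tested in GN5 and 7 of these were called higher with rapamycin and 0 lower, in a comparison where 6.91% of 7449 probes were called, 257 higher (3.45%) and 258 lower (3.46%). Nothing is read from this count, since that comparison chose the genes. The median of the 9 estimates was 0.68, against 0.01 over all probes tested. The arrays did not overlap for 8 of the 9, all higher with rapamycin, beside 27.8% of all probes in either direction and 14% in this one. When the arrays were scaled to a common median in place of quantile normalisation, the median over all probes moved to -0.14 and the split of calls became 103 higher and 754 lower. Under that scaling 4 of the 9 genes were called, Tgfb2 (0.43), Id1 (0.37) and Id2 (0.23) lost their calls, and Id3 turned to -0.10. Leaving out single arrays also ended the calls of Id1 (without rapamycin replicate 1 or 2) and Id2 (without vehicle replicate 2 or any rapamycin replicate), at log2 estimates of at least 0.48 and 0.41. Without GN5 vehicle replicates 2 and 3, the arrays of higher raw signal, 5 genes were called and Id1 and Id2 were not. With no detection filter Id1 lost its call. Some listed markers of cell types also differed between the GN5 groups. The summed linear level of the 5 epithelial markers on the chip (3 of them undetected: Krt19, Cdh1 and Epcam) was 8514 to 8889 with vehicle and 6999.7 to 7555 with rapamycin. Krt8 made up most of this sum. That of the 4 mesenchymal markers was 10348 to 12048 and 9169.6 to 9705. Krt8 went from a mean of 13.03 to 12.74 and Krt7 from 8.38 to 8.55, and the undetected hepatocyte markers summed to 137 to 140 with vehicle and 135 to 142 with rapamycin. Their part in the values above was not tested.

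In H5D 7 of the 10 genes could be tested and 0 were called by limma, where 0.722% of 7895 probes were called, 25 higher (0.317%) and 32 lower (0.405%). By unadjusted limma p, Id2 ranked 80 and Smad6 ranked 1080 among the 7895 probes. The methods' t-test with adjustment called 1 of the genes, Id2, where it called 300 of the 1551 probes past a fold of 1.2. The median estimate of the 7 was -0.15, against -0.01 over all probes. Smad6, Tgfb2 and Tgfb1 were higher on every rapamycin array and Bambi and Id2 lower, so that 5 of the 7 did not overlap, where 23.1% of all probes did not (10.8% higher, 12.3% lower). Under scaling to a common median the median over all probes was 0.17, with 156 probes higher and 8 lower, and the estimates of Id1 (0.060) and Id3 (0.047) then turned positive. The epithelial sum in H5D, with 2 of its 5 markers undetected, was 6903 to 7288 with vehicle and 9346 to 9598 with rapamycin. Its detected markers did not move alike: Krt8 went from a mean of 12.32 to 12.75, Krt7 from 10.77 to 11.21 and Krt19 from 7.63 to 7.44. The mesenchymal sum, with 3 of its 4 markers undetected, was 7203 to 10392 with vehicle and 8845 to 9498 with rapamycin. The part of these markers was not tested.

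**Figure D3:**
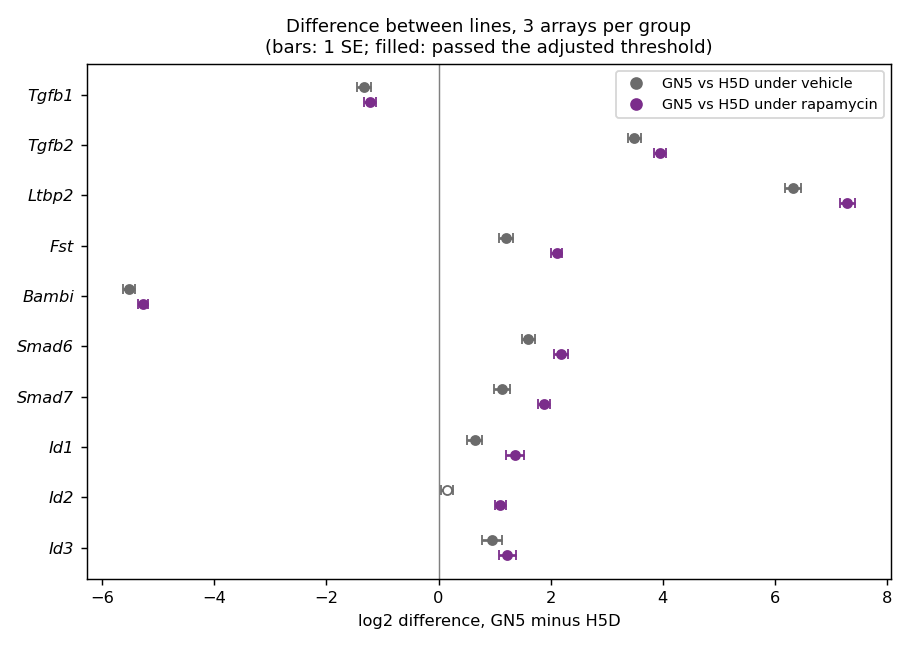
Log2 difference between the lines, GN5 minus H5D (x axis, bars 1 SE, 3 arrays per group), for each gene (y axis) under vehicle and under rapamycin. Filled points had an adjusted p below 0.05, and for Ltbp2, Fst and Bambi the dimmer line was undetected. These genes and Smad7, detected on 1 of 3 arrays of each H5D group, passed the filter through 1 line alone. Bambi and Tgfb1 were higher in H5D, and Id2 under vehicle was the only difference that did not pass.

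Between the lines under vehicle, 7 genes were higher in GN5, 2 were lower and Id2 did not pass, where 63.3% of 8279 probes were called (32.3% higher, 31% lower). Under rapamycin 8 were higher and 2 lower, where 72.2% of 8288 probes were called (38.1% higher, 34.1% lower). The arrays of the lines did not overlap for any of the 10 genes, as for 67.1% of all probes under vehicle and 74.1% under rapamycin. Shares of this size over all probes leave little to read from the counts, and Ltbp2, Fst, Bambi and Smad7 passed the filter through 1 line alone. Of the 6 genes detected on all arrays, Smad6, Tgfb2, Id1 and Id3 were higher in GN5 under either condition and Tgfb1 was higher in H5D. Under scaling to a common median the split of all calls under rapamycin moved from 3160 higher and 2828 lower to 1855 and 3504. The calls of the 10 genes did not change with it.

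The response of GN5 minus that of H5D was positive for each of the 6 genes detected on all arrays, and over the 10 genes it was called, as higher in GN5, for 3, where 1.41% of 8539 probes were called (0.738% higher, 0.668% lower). This contrast contains the one that chose the genes and is again a description. Of the 3, Id2 alone was detected in both lines, at 0.95 (SE 0.129). For Ltbp2 (0.97, SE 0.206) and Fst (0.90, SE 0.148) the H5D arrays held no level above background, so the H5D side of the difference was not measured. The others were 0.74 for Smad7 (SE 0.19), 0.72 for Id1 (SE 0.228), 0.59 for Smad6 (SE 0.179), 0.46 for Tgfb2 (SE 0.155), 0.28 for Id3 (SE 0.262) and 0.10 for Tgfb1 (SE 0.163). The Smad7 value rests on H5D arrays of which 2 of 6 were detected, and none is given for Bambi, which GN5 did not show above background. Under scaling to a common median the median over all probes was -0.29, and the calls went from 63 higher and 57 lower to 16 and 236. It left Id2 (0.56) and Ltbp2 (0.82) without their calls and turned Tgfb1 to -0.17 and Id3 to -0.15. The call of Ltbp2 ended on leaving out any of 7 single arrays (H5D vehicle replicates 1 and 3, H5D rapamycin replicates 1 and 2, GN5 vehicle replicate 3, GN5 rapamycin replicates 2 and 3), at 0.81 or more, and Smad7 gained a call without H5D vehicle replicate 2. Without GN5 vehicle replicates 2 and 3, 0 of the 10 were called.

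The wider pathway was described with 88 further genes in 7 roles, of which 71 were on the array and 32 could be tested in GN5. With rapamycin 7 were called higher in GN5, 2 lower and 23 did not pass, with a median of 0.19 against 0.01 over all probes, of which 3.45% were called higher and 3.46% lower. The 9 calls fell to 5 without vehicle replicate 2, without rapamycin replicate 2 or with no detection filter, to 4 under scaling to a common median and to 3 without vehicle replicates 2 and 3. Part of this list had also been seen to change before it was drawn up. Atoh8, a helix-loop-helix factor induced by BMP, was 1.91-fold higher (log2 0.93, SE 0.115), the smooth muscle protein Tagln 1.61-fold higher (0.68, SE 0.111) and the latent TGF-beta binding protein Ltbp4 1.51-fold higher (0.59, SE 0.0968). The collagen chain Col1a1 was lower by 0.75 on the log2 scale (-0.75, SE 0.124) and the proteoglycan Dcn, which binds TGF-beta, by 0.67 (-0.67, SE 0.105). The Col1a1 and Ltbp4 calls ended without GN5 vehicle replicates 2 and 3 (-0.57 and 0.51), and that of Ltbp4 under scaling to a common median (0.35). By role, none of the 3 signal Smads and 4 intracellular inhibitors tested in GN5 was called. Called higher were 1 of 4 ligands, 1 of 3 storage proteins, 1 of 5 receptors, 1 of 3 extracellular antagonists and 3 of 10 targets. A further antagonist, Dcn, and a further target, Col1a1, were called lower. Over all probes 6.91% were called, and counts this small cannot tell whether the roles differ, which was not tested. The receptor Acvr2b, the target Fn1 and the antagonist Bmper kept their calls in 1, 2 and 3 of the 6 fits without a single array.

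In H5D 31 genes of the wider pathway could be tested and 1 was called, where 0.722% of all probes were. There were 3 calls under scaling to a common median or with all 12 arrays in the fit. Ccn2, a matricellular protein induced by TGF-beta and by YAP, rose 2.94-fold (log2 1.56, SE 0.13, adjusted p = 0.00356), and no called probe remained in the whole comparison without H5D rapamycin replicate 2 (Ccn2 1.54, adjusted p = 0.068). In GN5 the same probe was at 13.75 with either treatment (difference -0.0022, SE 0.0938). The difference of responses for Ccn2 was -1.56 and was called. Between the lines under vehicle, 19 of 38 genes were higher in GN5, 11 lower and 8 did not pass, where 32.3% of all probes were called higher and 31% lower. Col1a1 was at least 31.6-fold higher in GN5. Ltbp1 was 32.7-fold higher against H5D vehicle arrays of which 1 of 3 detected it. It is given without a p-value, since it was tested through GN5 alone. Ccn2 was 21.7-fold higher (adjusted p = 2.36e-10), Ltbp4 16.3-fold (adjusted p = 1.90e-10) and Pmepa1 higher by 3.09 on the log2 scale (adjusted p = 4.69e-09). Dcn (mean 9.48 in GN5, 4.46 in H5D) and Tagln (8.42 and 4.54) were undetected on the H5D vehicle arrays. Of the genes lower in GN5, Cdkn2b differed most, at 4.63 and undetected in GN5 and 7.90 in H5D.

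**Figure D4:**
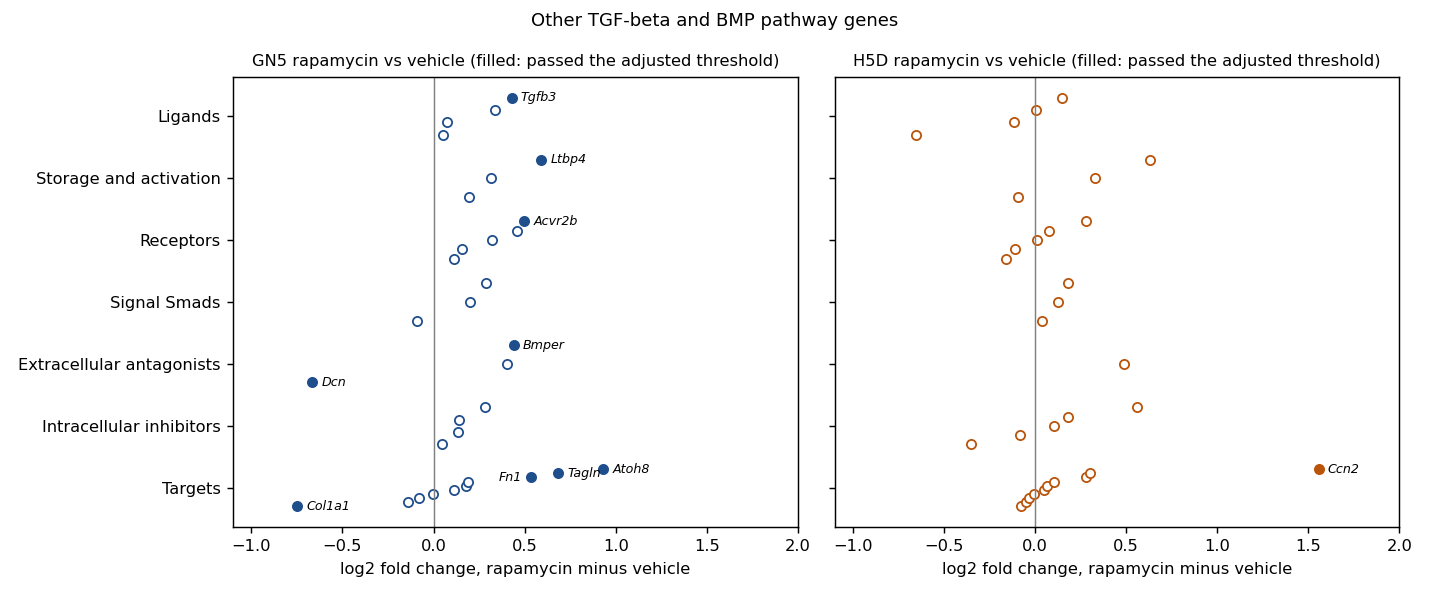
Log2 fold change with rapamycin against vehicle (x axis) of the other TGF-beta and BMP pathway genes that could be tested, by role (y axis), in GN5 (left) and H5D (right). Filled, named points had an adjusted p below 0.05. In GN5 7 genes were called higher and 2 lower, and in H5D Ccn2 alone was called.

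The genes whose pattern over the 12 arrays was most like that of a described gene were found by Pearson correlation among 6421 candidate probes. The correlations are a description, since all arrays fall into 2 lines and share their normalisation, and the gap between lines sets most of each value. Smad6 was most like Lrrc41 (r = 0.990), Smad7 like Adamts1 (0.990), Tgfb2 like Maf (0.998), Ltbp2 like Gata4 (0.998) and Bambi like Tubb2a (0.9997). Fst was most like Ccnl2 (0.988) and next most like Smad6 (0.985). Tgfb1 was most like Ica1 (0.991), Id3 like Nrdc (0.985), Id1 like Arfgap2 (0.978) and Id2 like Gclc (0.973).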

How the data were processed

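Total RNA from 12 plates was hybridised to RatRef-12 BeadChips, 3 arrays for each of 4 groups. The deposited bead table held linear intensity and a detection p-value per probe, per the file headers, with no background subtraction or normalisation. A second table held intensity that the authors had quantile normalised in BeadStudio and analysed in Partek 6.3, and was used as an alternative. Background was estimated from the detection p-values and removed, an offset of 16 was added, and log2 values were quantile normalised across the 12 arrays with neqc (limma 3.58.1, R 4.3.3). A probe was tested if its detection p was at most 0.01 on all 3 arrays of a group compared. Each comparison was fitted with lmFit and eBayes in limma, two-sided, with Benjamini-Hochberg adjustment over all probes tested, and called at an adjusted p below 0.05. The line comparisons used the 6 arrays of a condition, and the difference of responses was an interaction over 12 arrays. Symbols came from the platform annotation (13793 of 22523 probes had 1), 13752 updated by Entrez identifier through the GRCr8 gene table. Its coordinates were not used for the probes. Scripts were tested on simulated data.

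The members and gene lists were chosen with earlier results of these data known. All 10 genes are named with every probe, and of the wider pathway up to 8 called genes with the largest change per comparison. The alternatives were scaling to a common median, the authors' values, an offset of 50, no detection filter or a limit of 0.05, all 12 arrays in the fit, replicate number as a block, the methods' t-test (probes past a fold of 1.2), leaving out each array, and leaving out GN5 vehicle replicates 2 and 3. The number of arrays and, for dim probes, the background limit the precision.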

Additional observations from a re-analysis of the deposited data

Results flagged for a closer look

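A closer look is given to the 3 genes that were called in the interaction fit: Ltbp2 (0.97, GN5 minus H5D on the log2 scale), Fst (0.90) and Id2 (0.95). The contrast contains the one that chose the genes. Ltbp2 and Fst were undetected in H5D, so the H5D side of their difference was not measured. Ltbp2 lost its call under scaling to a common median (0.82), with no detection filter and with the replicate block. Id2 was detected on all 12 arrays, higher on the 3 GN5 and lower on the 3 H5D rapamycin arrays, and lost its call under scaling to a common median (0.56).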

How the results depend on the processing

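The labels do not say whether the replicate numbers pair the plates. Correlations of same-numbered arrays' deviations ran from -0.21 to 0.10 in GN5 and from -0.36 to 0.20 in H5D. Those of differently numbered arrays ran from -0.12 to 0.25 and from -0.47 to 0.44. With 3 arrays in a group these values cannot decide whether plates were paired. With replicate number as a block, 330 probes were called in GN5 in place of 515, 15 in H5D in place of 57, 5326 between lines under vehicle, 5868 under rapamycin and 90 for the difference. Of the 10 genes the block changed the call of Ltbp2 in the difference alone.

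Probes called in GN5 were 857 under scaling to a common median, 233 with no detection filter and 156 without vehicle replicates 2 and 3. In H5D they were 164 under scaling, 87 with the authors' values, 31 with no filter, 290 with all 12 arrays and 300 with the methods' t-test. For the difference they were 252 under scaling and 14 without GN5 vehicle replicates 2 and 3. Of the 10 genes, 4 in place of 7 were called in GN5 under scaling, and 1 in place of 0 in H5D with the authors' values, offset 50, all 12 arrays or the t-test. For the difference 1 in place of 3 was called under scaling, 5 with the authors' values and 0 without GN5 vehicle replicates 2 and 3. Leaving out single arrays gave 164 to 934 probes and 5 to 7 of the genes in GN5, 0 to 44 and 0 in H5D, 4651 to 5240 and 9 between lines under vehicle, 5515 to 5903 and 10 under rapamycin, and 58 to 139 and 2 to 4 for the difference. The GN5 count was 164 without vehicle replicate 2, 266, 182 and 190 without rapamycin replicates 1, 2 and 3, and 934 without vehicle replicate 1. In H5D it was 3 and 31 without vehicle replicates 1 and 3, and 12, 0 and 17 without rapamycin replicates 1, 2 and 3. For the difference it was 58 to 75 without H5D vehicle replicate 1, H5D rapamycin replicate 1 or 2, GN5 vehicle replicate 2 or any GN5 rapamycin replicate.

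Leaving out single arrays gave -0.045 to 0.18 for Id3 in GN5, and in H5D -0.27 to 0.066 for Id1 and -0.33 to 0.016 for Id3. Signs turned in 9 cases: Id3 in GN5 (-0.10 under scaling, -0.045 without vehicle replicate 1), Id1 in H5D (0.060 under scaling, 0.066 without rapamycin replicate 3), Id3 in H5D (0.047 under scaling, 0.015 without vehicle replicate 2, 0.016 without rapamycin replicate 1), and Tgfb1 (-0.17) and Id3 (-0.15) for the difference under scaling. None of these estimates was called. Of the other values of the 10 genes under the alternatives, 662 kept direction and side of the threshold, 27 lost a call and 8 gained one. The cause of these changes was not tested. Chip position was not run, since the file headers name no slide. Probes near the detection limit (Smad7 and Fst in H5D) are limited by signal over background.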
